A study of Mus musculus with 12 samples.

Results

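The genes described here are Igf1, its receptor Igf1r, and 6 IGF-binding proteins, Igfbp2, Igfbp3, Igfbp4, Igfbp5, Igfbp6 and Igfbp7. They were found in both count tables by mapping Ensembl identifiers to gene symbols on the mouse GRCm38 annotation, and all 8 were present among the 55487 genes counted. mRNA was sequenced from cells of the limb bones of C57BL/6 mice aged 8 weeks. In the first experiment, bone marrow macrophages (BMMs) grown with M-CSF came from ovariectomized (OVX) mice, a model of estrogen-deficiency bone loss, or from sham-operated mice, with 3 libraries each. In the second experiment, mesenchymal stem cells (MSCs), kept as the adherent cells of the marrow, were grown alone (MSC), across a transwell membrane from RAW cells (MSC+RAW-TW), or across it from RAW cells that had been given LPS, a bacterial endotoxin (MSC+RAW-LPS-TW), with 2 libraries each. RAW cells are the RAW264.7 line, mouse macrophage-like leukemia cells, and only the MSC side was labelled as sequenced. All groups shared the strain and the labelled age, the labels name no engineered allele, and the number of mice behind a library is not given in the sources used here.

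IGF-1 is a secreted growth factor that acts through the tyrosine kinase receptor encoded by Igf1r and that stimulates growth and matrix production by bone-forming cells. In tissue most of it is held by IGF-binding proteins, which can block its access to the receptor, carry it, or keep it at the matrix. Proteases such as pregnancy-associated plasma protein A (Pappa) cut the binding proteins and so release the ligand. In bone marrow, stromal cells and macrophages are both known sources of IGF-1.

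The promoter windows of the 6 genes that passed a test for a change are shown first, since 2 of them fell together and 3 rose together in MSCs beside LPS-treated RAW cells, and the other fell in OVX BMMs. The windows are from RefSeq (GRCm38.p6) and run from 250 bases before to 50 bases after the start site on the gene's strand, and RefSeq had a window for all 8 genes. Capitals mark matches, on either strand, to TATANA, known as the TATA box, to CCAAT, the CCAAT box, to GGGCGG, the GC box, to TTCNNNGAA, a STAT site, or to an NF-kB site of 10 letters. Igf1 (chr10:87860861-87861160, plus strand) and Igfbp4 (chr11:99040994-99041293, plus strand) are the genes that fell, Igfbp3 (chr11:7213874-7214173, minus strand), Igfbp5 (chr1:72874816-72875115, minus strand) and Igfbp7 (chr5:77407996-77408295, minus strand) are those that rose, and Igfbp6 (chr15:102143936-102144235, plus strand) is the gene that fell in OVX BMMs.
Igf1: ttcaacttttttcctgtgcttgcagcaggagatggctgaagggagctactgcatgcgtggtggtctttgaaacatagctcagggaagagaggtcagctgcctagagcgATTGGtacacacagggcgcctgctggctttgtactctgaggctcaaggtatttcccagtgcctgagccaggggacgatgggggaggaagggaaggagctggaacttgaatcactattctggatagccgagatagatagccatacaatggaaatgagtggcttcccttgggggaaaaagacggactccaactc
Igfbp4: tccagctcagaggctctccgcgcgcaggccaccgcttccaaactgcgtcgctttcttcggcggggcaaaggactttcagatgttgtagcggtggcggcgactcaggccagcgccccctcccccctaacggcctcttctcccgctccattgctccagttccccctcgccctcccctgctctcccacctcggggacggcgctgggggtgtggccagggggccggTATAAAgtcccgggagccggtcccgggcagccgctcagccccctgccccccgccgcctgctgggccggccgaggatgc
Igfbp3: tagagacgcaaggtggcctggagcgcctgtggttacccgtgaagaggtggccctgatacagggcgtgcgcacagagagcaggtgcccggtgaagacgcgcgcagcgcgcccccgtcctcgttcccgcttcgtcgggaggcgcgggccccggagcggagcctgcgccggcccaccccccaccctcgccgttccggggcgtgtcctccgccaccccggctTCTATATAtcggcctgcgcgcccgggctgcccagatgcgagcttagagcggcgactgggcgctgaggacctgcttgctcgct
Igfbp5: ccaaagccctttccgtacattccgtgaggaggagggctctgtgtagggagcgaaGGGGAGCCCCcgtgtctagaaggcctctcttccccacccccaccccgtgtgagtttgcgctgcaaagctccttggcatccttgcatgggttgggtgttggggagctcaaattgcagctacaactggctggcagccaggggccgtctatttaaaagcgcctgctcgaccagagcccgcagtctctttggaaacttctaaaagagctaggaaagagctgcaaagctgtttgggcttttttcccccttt
Igfbp7: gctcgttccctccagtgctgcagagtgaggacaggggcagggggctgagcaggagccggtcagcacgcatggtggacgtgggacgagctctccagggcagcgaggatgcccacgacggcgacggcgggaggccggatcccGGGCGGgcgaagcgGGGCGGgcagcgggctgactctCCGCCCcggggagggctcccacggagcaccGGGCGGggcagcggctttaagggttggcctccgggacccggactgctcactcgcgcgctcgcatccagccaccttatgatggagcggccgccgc
Igfbp6: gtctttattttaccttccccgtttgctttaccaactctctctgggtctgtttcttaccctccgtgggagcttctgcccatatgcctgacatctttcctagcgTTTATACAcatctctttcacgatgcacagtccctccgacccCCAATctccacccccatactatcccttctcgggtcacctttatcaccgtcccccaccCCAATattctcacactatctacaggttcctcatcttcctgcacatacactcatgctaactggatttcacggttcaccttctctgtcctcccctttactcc

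A TATA box match began 28 bases upstream of the start site in Igfbp4 and 30 bases upstream of it in Igfbp3, where matches on both strands overlapped. Igfbp7 held 4 GC boxes and no TATA match, and Igf1 held a single CCAAT box, on the minus strand 142 bases upstream. The only NF-kB match among the 8 genes lay 196 bases upstream of the Igfbp5 start. Among all 32851 RefSeq windows of this length, 24.7% held a TATA match, 37.4% a CCAAT box, 35.7% a GC box, 8.30% a STAT site and 4.51% an NF-kB site, and no first window of the 8 genes held a STAT match. The 2 genes that fell shared no motif with each other, and the 3 that rose shared none among all of them. The Igf1 start used by RefSeq lies 2846 bases inside the gene as counted, so its window does not stand for every Igf1 transcript. The Igfbp6 start lies 176 bases before the gene as counted, and its window does not reach that gene. These matches describe letters in the windows and not binding.

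Library totals ran from 17012923 to 45367105 counts. Levels are given as CPM (counts scaled to a common total) on TMM-scaled library sizes, set within each experiment, so levels of BMMs and MSCs were not tested against each other. Sham replicates 2 and 3, and both MSC+RAW-TW libraries, were near-identical and were each counted as 1 sample: among genes with high counts, their variance was 2.81 and 3.26 times that of counting, against 18.5 to 121 times in the other pairs of a group. The sham group therefore had n = 2, OVX n = 3, MSC n = 2, MSC+RAW-TW n = 1 and MSC+RAW-LPS-TW n = 2, and p-values measure the spread between these samples, which may be technical. BMM libraries held all 20 macrophage markers at 1 CPM or more, as labelled, together with a summed level of 12 stromal markers of 7613 to 9491 CPM. MSC libraries went partly against their label. They also held all 20 macrophage markers at 1 CPM or more, with Ptprc (CD45), which the MSC gate of the study lists as absent, at 167 to 171 CPM in MSC, and their stromal sum was 2972 to 3070 CPM in MSC, with the stromal surface marker Thy1 at 0.294 to 0.449 CPM. In MSC 10 of the 12 stromal markers were at 1 CPM or more. Pdgfrb was at 157 to 161 CPM and Pdgfra at 73.9 to 80.9 CPM. Dcn was at 7.09 to 8.07 CPM, Lepr at 1.78 to 2.03 CPM and Lum at 0.286 to 0.499 CPM. All 6 gate markers were at 1 CPM or more. Of those gated as present, Itgb1 (CD29) was at 785 to 961 CPM and Ly6a (Sca-1) at 200 to 229 CPM. Cd44 was at 157 to 183 CPM and Nt5e (CD73) at 7.04 to 7.72 CPM. Cd34, gated as absent like Ptprc, was at 5.28 to 5.54 CPM, so both went against the label. In such bulk samples, fewer cells of a type and less RNA per cell cannot be told apart.

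Levels between genes were compared per kilobase of exon. Igfbp4 and Igfbp7 were the most abundant of the 8 genes in all 5 groups, at 54.0 to 329 CPM per kb for Igfbp4 and 66.3 to 195 CPM per kb for Igfbp7 as group means. Igfbp4, which restrains IGF-1 until Pappa cuts it, ranked above Igfbp7 in sham, MSC and MSC+RAW-TW, and Igfbp7, a matrix-associated relative that binds IGF-1 weakly, ranked above Igfbp4 in OVX and MSC+RAW-LPS-TW. In sham the ranges of these 2 genes overlapped, whereas in the other 4 groups they did not. Igf1 had rank 3 in OVX, MSC and MSC+RAW-TW and rank 4 in sham, but rank 6 in MSC+RAW-LPS-TW, below Igf1r. Igfbp2 was the lowest or near the lowest gene in every group, at 0.405 to 1.20 CPM per kb. In the 2 MSC groups with 2 samples, Igfbp2 and Igfbp6 were the lowest pair and their ranges overlapped.

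**Figure D1:**
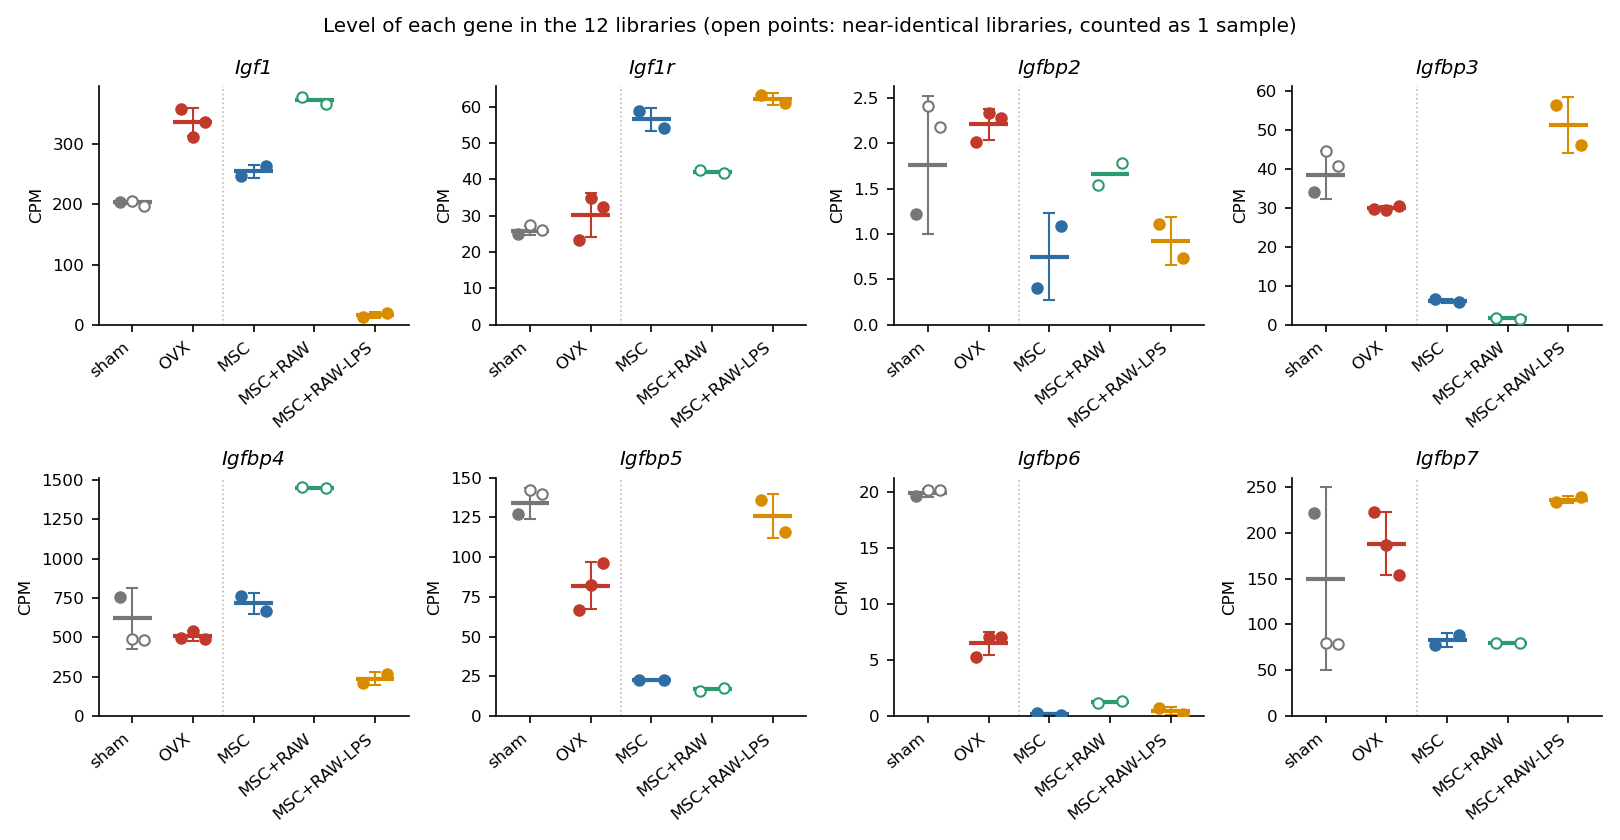
Level of each of the 8 genes (CPM, linear axis from 0) in the 12 libraries by group, with horizontal bars for group means and error bars for the SD where n is 2 or 3, and a dotted line between the 2 experiments, which were scaled separately. Open points are near-identical libraries counted as 1 sample; the Igf1 points of MSC+RAW-LPS-TW lie between 12.5 and 19.7 CPM, under every other group, and the Igfbp6 points of OVX lie under those of sham.

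The comparison of OVX with sham asked how macrophage transcription differs after ovariectomy. Of the 8 genes, 1 passed the test, which required a 2-fold change and an adjusted p of at most 0.05 (edgeR quasi-likelihood test, Benjamini-Hochberg adjustment over 16768 genes); 8.47% of all genes tested did so. That gene was Igfbp6, which prefers IGF-2 over IGF-1 and which fell in OVX BMMs. Igf1 was higher, and Igfbp3 and Igfbp5 were lower, in every OVX library than in any sham library, but the differences were smaller than 2-fold, and that of Igf1 changed sign once dependence on GC content and length was taken out. Igf1r, Igfbp2, Igfbp4 and Igfbp7 overlapped between the groups. How many of all genes did not overlap was not worked out, so separation of the groups is given as a description only.

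Igf1 was at 204, 206 and 197 CPM in sham replicates 1 to 3 and at 359, 312 and 337 CPM in OVX replicates 1 to 3. All 3 OVX libraries were above all sham libraries, and the sham libraries lay within a narrow range. The means were 336 ± 23.4 (SD, n = 3) in OVX and 203 ± 1.71 (SD, n = 2) in sham, a difference of 0.72 on the log2 scale (SE 0.17, 95% interval 0.32 to 1.12, edgeR adjusted p = 0.0334), which was under the 2-fold limit. This difference depended on one processing step: once per-library dependence on GC content and exon length was taken out, the log2 fold change of Igf1 was -0.23 (edgeR adjusted p = 0.425). Igf1 has a GC content of 38.0%, the lowest of the 8 genes, and 9.904 kb of exon. Its adjusted p was also above 0.05 without OVX replicate 1 (0.0843), 2 (0.114) or 3 (0.0920).

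Igf1r, which passes the IGF-1 signal into the cell, was at 25.1, 27.4 and 26.2 CPM in sham and 23.4, 34.8 and 32.3 CPM in OVX. OVX replicate 1 was below the sham libraries and the other two were above them, so the groups overlapped. The log2 fold change was 0.21 (95% interval -0.29 to 0.71, edgeR adjusted p = 0.560).

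Among the binding proteins, Igfbp6 was at 19.6, 20.1 and 20.1 CPM in sham and at 5.30, 7.04 and 7.08 CPM in OVX. Every OVX library was far below every sham library, and the counts behind the values were 174 to 753 reads. Its log2 fold change was -1.63 (SE 0.21, 95% interval -2.12 to -1.14, edgeR adjusted p = 0.00637), a 3.09-fold fall. The fall passed the test without any single library, with an adjusted p of up to 0.0486, and with the GC and length trends removed, where it was -1.16 (edgeR adjusted p = 0.0107). Within the library numbers that the column names carry, whose meaning is not given, the difference was -1.50 for replicate 2 and -1.68 for replicates 1 and 3.

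Igfbp5, which binds bone matrix and is abundant in the skeleton, was at 127, 142 and 140 CPM in sham and 67.1, 82.8 and 96.5 CPM in OVX. The groups did not overlap, and OVX replicate 1 was the lowest library. The log2 fold change was -0.72 (SE 0.20, 95% interval -1.18 to -0.25), and the edgeR adjusted p of 0.0526 missed the threshold. Igfbp3, the main carrier of IGF-1 in blood, was at 34.1, 44.6 and 40.7 CPM in sham and 29.8, 29.4 and 30.5 CPM in OVX. Again no OVX library reached a sham library, but the difference of -0.36 on the log2 scale (SE 0.18, edgeR adjusted p = 0.213) did not pass the test.

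Igfbp4 and Igfbp7 turned on sham replicate 1. Igfbp4 was at 756 CPM in that library, 488 and 482 CPM in the near-identical sham replicates 2 and 3, and 494, 544 and 489 CPM in OVX. Igfbp7 was at 221 CPM in sham replicate 1, 79.5 and 78.3 CPM in replicates 2 and 3, and 222, 187 and 154 CPM in OVX. Sham replicate 1 was thus above all OVX libraries for Igfbp4 and among them for Igfbp7, while the other sham libraries were below all OVX libraries for Igfbp7. With all libraries, the log2 fold change was -0.30 for Igfbp4 (SE 0.22, edgeR adjusted p = 0.405) and 0.32 for Igfbp7 (SE 0.39, edgeR adjusted p = 0.631). Without sham replicate 1 it was 0.06 for Igfbp4 (edgeR adjusted p = 0.869; 0.05 with all libraries and the GC and length trends removed) and 1.25 for Igfbp7 (edgeR adjusted p = 0.00997); that fit has 1 sham sample, which is assumed to vary like the OVX samples. Igfbp2 was low, at 1.22 to 2.41 CPM in sham and 2.01 to 2.33 CPM in OVX, with overlapping groups and a difference of 0.32 on the log2 scale (SE 0.36, edgeR adjusted p = 0.595).

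Cell-type markers also differed between these groups. The summed macrophage markers were 66010 to 70381 CPM in sham and 47652 to 52105 CPM in OVX, with 5 of 20 called lower and 1, Mrc1, called higher, and Lyz2 made up most of the sum. The stromal sum was 7613 to 8284 CPM in sham and 8499 to 9491 CPM in OVX, with 1 of 12, Postn, called higher. Igfbp6 fell 3.09-fold while the macrophage sum was 1.38-fold lower and the stromal sum 1.13-fold higher. Single macrophage markers moved farther than their sum, and in both directions. Spi1 was at 595 to 790 CPM in sham and 212 to 281 CPM in OVX, and Mrc1 at 49.7 to 50.7 CPM and 175 to 250 CPM. Among the other lists, the B-cell sum was 2.46-fold lower with 2 of 5 markers called lower, the osteoblast sum 1.62-fold higher with 1 called higher, the smooth muscle and pericyte sum 1.51-fold higher and the neutrophil sum 1.47-fold higher, with no marker called in the last 2 lists. The adipocyte sum was 2.13-fold lower, at under 1 CPM in all BMM libraries, and of the 6 MSC gate markers Nt5e was called higher and Ly6a lower. Counts on ribosomal RNA genes were 3.22% to 5.70% of the total in sham and 2.56% to 2.78% in OVX. The part of these values in the differences was not tested.

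**Figure D2:**
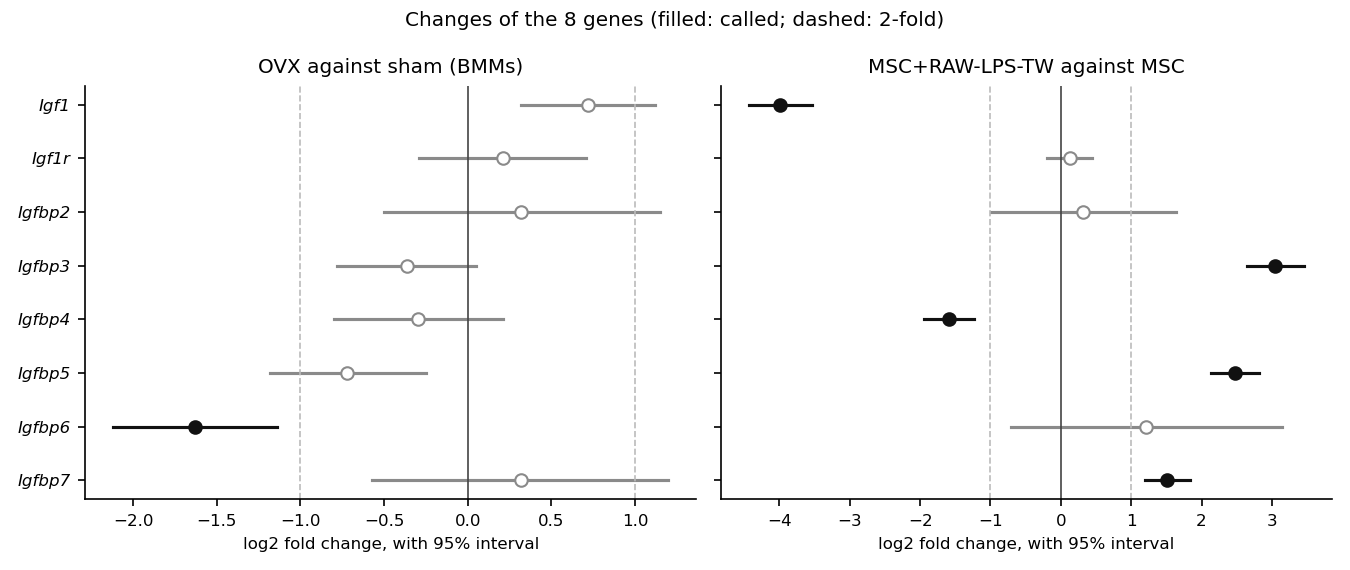
Log2 fold change of the 8 genes with its 95% interval (x axis) in OVX against sham BMMs (left) and in MSC+RAW-LPS-TW against MSC (right), with filled points for genes that passed the test and dashed lines at 2-fold. On the left Igfbp6 is the filled point, at -1.63; on the right Igf1 (-3.99) and Igfbp4 (-1.59) lie to the left of 0 and Igfbp3 (3.05), Igfbp5 (2.47) and Igfbp7 (1.51) to the right.

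Of 62 other genes of the IGF pathway, 55 were tested in BMMs, 3 rose and 1 fell in OVX, a share of 7.27% beside 8.47% of all genes tested, and their median log2 fold change was -0.05 beside -0.01 for all genes tested. The 2 largest rises were of the IGFBP proteases. Pappa, which cuts Igfbp4 and Igfbp5, was at 13.6, 17.8 and 20.8 CPM in sham and 45.2, 41.0 and 48.9 CPM in OVX. Its groups were well apart, and it rose by 1.43 on the log2 scale (SE 0.22, edgeR adjusted p = 0.00874), with calls under all alternatives run. Pappa2, which cuts Igfbp3 and Igfbp5, rose from 0.209 to 1.03 CPM, a rise of 2.24 on the log2 scale (SE 0.56, edgeR adjusted p = 0.0362), but its edgeR adjusted p was 0.0530 to 0.127 without sham replicate 1 or 2 or any 1 of the OVX libraries, and 0.0622 with GC and length trends removed, while its log2 fold change stayed between 2.06 and 2.51 in all alternatives that tested it. Pappa2 is below the mean level required for naming and was chosen after its values were seen.

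Rictor, a scaffold of an mTOR complex, rose from 16.4 to 42.2 CPM (log2 fold change 1.36, SE 0.24, edgeR adjusted p = 0.0129), and Pik3cd, the leukocyte-enriched catalytic PI3-kinase subunit, fell from 107 to 48.3 CPM (-1.16, SE 0.18, edgeR adjusted p = 0.00882). With GC and length trends removed neither was called, at 0.65 for Rictor (edgeR adjusted p = 0.0726) and -0.75 for Pik3cd (edgeR adjusted p = 0.0245, under the fold limit), and Pik3cd was not called without OVX replicate 2 (-1.12, edgeR adjusted p = 0.0651). Upstream of Igf1, the growth hormone receptor Ghr was at 11.9 CPM in sham and 17.6 CPM in OVX (log2 fold change 0.56, SE 0.23, edgeR adjusted p = 0.147). Igf2 was at or under 0.800 CPM in all BMM libraries, so Igf1 was the IGF ligand with the higher level. The receptors Insr and Igf2r and the adaptors Irs1, Irs2 and Grb10 had log2 fold changes between -0.17 and 0.68, with edgeR adjusted p-values of 0.104 or more, and the protease Htra1 was at 255 CPM in OVX and 238 CPM in sham (0.09, edgeR adjusted p = 0.808).

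In the second experiment, the comparison of MSC+RAW-LPS-TW with MSC asked how MSCs respond to macrophages activated by LPS. Here 5 of the 8 genes passed the test, 3 higher and 2 lower (20499 genes tested), while 11.0% of all genes tested did so. Igf1 fell the most, by 15.9-fold, and Igfbp4 fell by 3.01-fold. Igfbp3, Igfbp5 and Igfbp7 rose by 8.27-fold, 5.55-fold and 2.85-fold. Igf1r, Igfbp2 and Igfbp6 did not pass the test. The 5 calls were made in every alternative run, but a fit that leaves out an MSC or MSC+RAW-LPS-TW library has 1 sample in that group, which is assumed to vary like the samples of the other.

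Igf1 was at 247 and 263 CPM in the MSC libraries and at 12.5 and 19.7 CPM in the MSC+RAW-LPS-TW libraries. Both co-culture libraries were far below both MSC libraries, with 416 and 619 counts behind them. The means were 255 ± 11.0 (SD, n = 2) and 16.1 ± 5.13 (SD, n = 2), and the log2 fold change was -3.99 (SE 0.21, 95% interval -4.43 to -3.54, edgeR adjusted p = 1.44e-09). Over the alternatives it lay between -4.35 and -3.72. Igf1r was at 58.8 and 54.2 CPM in MSC and 63.2 and 61.0 CPM in MSC+RAW-LPS-TW. These ranges did not overlap, but the log2 fold change was 0.13 (SE 0.15, 95% interval -0.19 to 0.45, edgeR adjusted p = 0.616), so the receptor mRNA did not pass the test.

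Of the binding proteins, Igfbp3 was at 6.54 and 5.81 CPM in MSC and 56.3 and 46.2 CPM in MSC+RAW-LPS-TW. Both co-culture libraries stood well above, and the log2 fold change was 3.05 (SE 0.19, 95% interval 2.64 to 3.46, edgeR adjusted p = 1.17e-08). Igfbp5 was at 22.5 and 22.8 CPM in MSC and 136 and 116 CPM in MSC+RAW-LPS-TW. It rose by 2.47 on the log2 scale (SE 0.16, edgeR adjusted p = 1.66e-08), with the groups again apart. Igfbp7 was at 77.5 and 88.1 CPM in MSC and 233 and 239 CPM in MSC+RAW-LPS-TW, a rise of 1.51 on the log2 scale (SE 0.15, edgeR adjusted p = 2.14e-06). The RNA polymerase gene Polr2b lies over part of Igfbp7 on the opposite strand, and the strand setting of the counting is not stated. Polr2b had up to 2973 counts in a library of either experiment. Igfbp7 had 3792 and 3000 counts in MSC and 7768 and 7496 counts in MSC+RAW-LPS-TW. Its lowest count in any library, 1256, was in a sham library.

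Igfbp4 went the other way. It was at 765 and 668 CPM in MSC and 208 and 268 CPM in MSC+RAW-LPS-TW, with no overlap, and its log2 fold change was -1.59 (SE 0.17, 95% interval -1.95 to -1.23, edgeR adjusted p = 3.84e-06). Igfbp2 and Igfbp6 were near the limit of detection. Igfbp2 was at 0.409 and 1.09 CPM in MSC and 1.11 and 0.734 CPM in MSC+RAW-LPS-TW, and Igfbp6 had 13 and 4 counts in MSC and 24 and 6 counts in MSC+RAW-LPS-TW. Both pairs of groups overlapped, and at this depth no difference was detectable for Igfbp2 (log2 fold change 0.32, SE 0.62, edgeR adjusted p = 0.790) or Igfbp6 (1.21, SE 0.90, edgeR adjusted p = 0.411).

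Markers moved in the same libraries. The macrophage sum was 32118 to 32322 CPM in MSC and 16621 to 17710 CPM in MSC+RAW-LPS-TW, 1.88-fold lower, with 8 of 20 markers called lower and 1, Adgre1, called higher. Mrc1 fell from 584 to 593 CPM down to 3.99 to 4.02 CPM, while Ptprc was at 167 to 171 CPM in MSC and 210 to 228 CPM in MSC+RAW-LPS-TW. The stromal sum was 2972 to 3070 CPM in MSC and 4272 to 4369 CPM in MSC+RAW-LPS-TW, 1.43-fold higher, with 3 of 12 called higher and none lower, namely Dcn, Lum and Postn. The sum of 8 neutrophil markers was 11.7 to 16.4 CPM in MSC and 370 to 557 CPM in MSC+RAW-LPS-TW, with S100a8 and Camp called higher. S100a8, at 341 to 517 CPM in MSC+RAW-LPS-TW, carried most of this sum, and only 2 of the 8 were at 1 CPM or more there. The adipocyte sum was 1.74-fold lower, with Plin1 and Cidec called lower. Sums of low markers also differed, the erythroid sum at 0.449 to 0.675 CPM in MSC and 2.40 to 3.03 CPM in MSC+RAW-LPS-TW, with Hba-a1 called higher, and the T-cell sum at 1.82 to 3.41 and 0.360 to 1.24 CPM, with none called. The B-cell sum was 1.82-fold higher and the smooth muscle and pericyte sum 1.31-fold lower, and Vwf (endothelial), Tagln (smooth muscle) and Ibsp (osteoblast) were called lower. Of the 6 MSC gate markers 1 was called, Nt5e, which rose from 7.04 to 7.72 CPM in MSC up to 52.9 to 55.1 CPM. Lyz2, at 21614 to 21705 CPM in MSC, carried most of the macrophage sum, and single markers moved as far as the members or farther: Mrc1 fell 147-fold and Cd68 7.07-fold, beside 15.9-fold for Igf1 and 3.01-fold for Igfbp4, and Dcn rose 25.6-fold and Lum 58.5-fold, beside 8.27-fold for Igfbp3. Counts on ribosomal RNA genes were 4.14% to 4.83% of the total in MSC and 5.67% to 8.03% in MSC+RAW-LPS-TW. The part of these values in the differences was not tested.

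**Figure D3:**
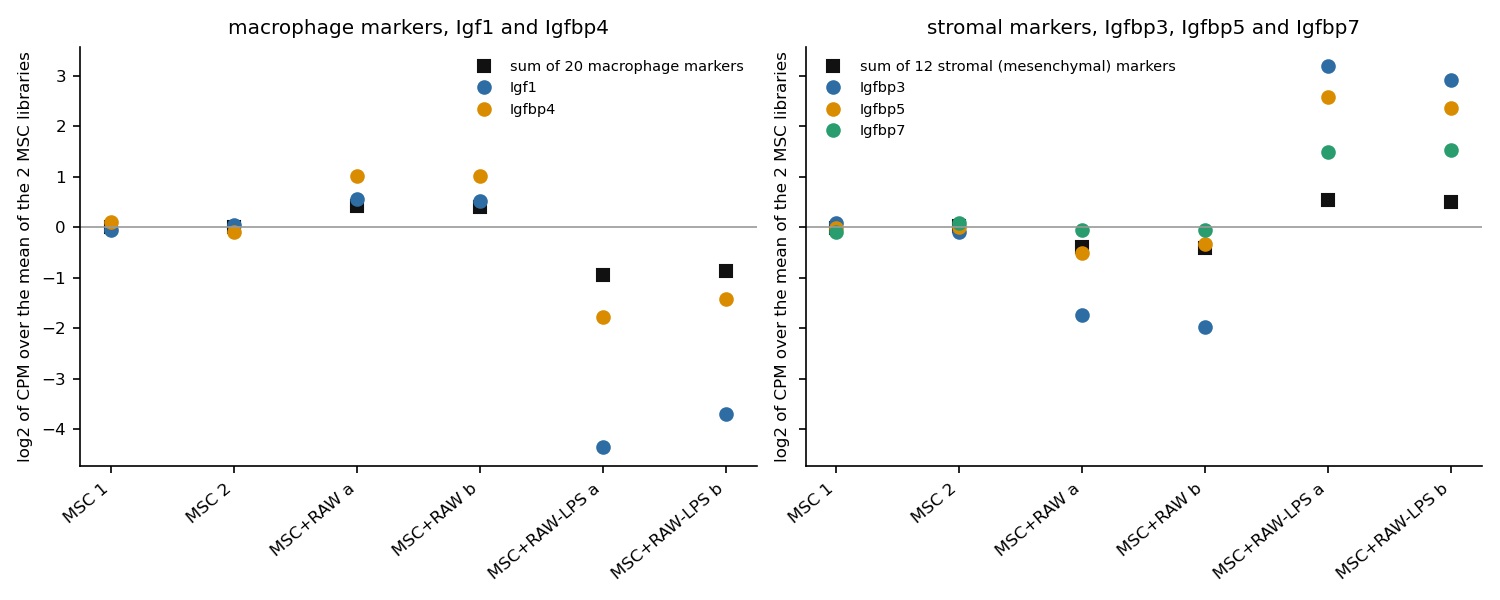
Log2 of CPM over the mean of the 2 MSC libraries (y axis) in the 6 libraries of the MSC experiment (x axis), for the sum of 20 macrophage markers with Igf1 and Igfbp4 (left) and the sum of 12 stromal markers with Igfbp3, Igfbp5 and Igfbp7 (right). In MSC+RAW-LPS-TW the Igf1 and Igfbp4 points lie under the macrophage sum and the Igfbp3, Igfbp5 and Igfbp7 points over the stromal sum, but single markers that are not drawn moved farther than any of these genes, such as Mrc1 (147-fold lower) and Lum (58.5-fold higher).

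Untreated RAW cells gave a different set of levels. The 2 MSC+RAW-TW libraries count as 1 sample, so these comparisons have no replicate check, share libraries with the one above, and are given as values. Igf1 was at 378 and 367 CPM in MSC+RAW-TW, above the 255 CPM of MSC by a log2 fold change of 0.58 (1.61 with GC and length trends removed) and above the 16.1 CPM of MSC+RAW-LPS-TW. Igfbp4 was at 1451 CPM as the mean of the pair, above MSC by 1.05 and above MSC+RAW-LPS-TW, for which the log2 fold change against MSC+RAW-TW was -2.64. Igfbp3 was at 1.86 and 1.58 CPM, under MSC by 1.81 on the log2 scale, and its log2 fold change from there to MSC+RAW-LPS-TW was 4.86.

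Igfbp5 was at 16.0 and 17.9 CPM in MSC+RAW-TW, a log2 fold change of -0.40 against MSC, and MSC+RAW-LPS-TW was above it by 2.87. Igfbp7 was at 80.1 and 80.2 CPM, within the range of MSC (-0.02), and MSC+RAW-LPS-TW was above it by 1.53. Igf1r was at 42.5 and 41.7 CPM, under both other groups (-0.40 against MSC). For Igf1, Igf1r, Igfbp3, Igfbp4 and Igfbp5, the libraries beside untreated RAW cells lay on one side of both MSC libraries and those beside LPS-treated RAW cells on the other. The share of all genes with this pattern was not worked out, so it is a description. For Igf1r the step from MSC to MSC+RAW-LPS-TW had not passed the test. Against MSC, 4 of the 8 genes were past 2-fold, of which Igfbp2 (1.19) and Igfbp6 (2.69) were at 1.66 and 1.26 CPM. Igfbp2 was at 0.63 without MSC replicate 1, 2.04 without MSC replicate 2 and 0.46 with GC and length trends removed, and Igfbp4 was under 2-fold without MSC replicate 2 (0.95) and with those trends removed (0.66). Igfbp6, with 13 and 4 counts in MSC, ranged from 2.11 to 3.41 over the alternatives. The share of all genes past 2-fold in this comparison was 37.7%. Between MSC+RAW-LPS-TW and MSC+RAW-TW, 6 of the 8 were past 2-fold, where 47.6% of all genes were. In MSC+RAW-TW the macrophage sum was 42295 to 42891 CPM, 1.32-fold above MSC, and the stromal sum was 2285 to 2308 CPM, 1.32-fold below it, the neutrophil sum was 2.36-fold above MSC, and counts on ribosomal RNA genes were 1.91% to 1.93% of the total, beside 4.14% to 4.83% in MSC and 5.67% to 8.03% in MSC+RAW-LPS-TW. Between the co-cultures, the macrophage sum was 2.48-fold lower, the stromal sum 1.88-fold higher, the adipocyte sum 2.32-fold lower and the neutrophil sum 14.0-fold higher with LPS-treated RAW cells. The part of these markers and shares in the member values was not tested.

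The make-up of the binding proteins, as shares of their summed CPM per kb, changed with these levels. In MSC, Igfbp4 made up 71.1% and 65.6% of the sum and Igfbp7 26.3% and 31.6%. In MSC+RAW-TW, Igfbp4 made up 82.2% and 82.0%. In MSC+RAW-LPS-TW the order was turned, with Igfbp7 at 68.4% and 67.4%, Igfbp4 at 16.7% and 20.7%, and Igfbp5 at 8.01% and 6.60%. In BMMs, Igfbp4 made up 34.7% to 47.6% and Igfbp7 28.2% to 57.0% over the 6 libraries, and Igfbp6 made up 4.36% to 7.89% in sham and 1.48% to 2.34% in OVX.

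The summed binding-protein level was 244 and 230 CPM per kb in MSC, 400 CPM per kb in each MSC+RAW-TW library, and 282 and 293 CPM per kb in MSC+RAW-LPS-TW. Igf1 per unit of summed binding protein was 0.102 and 0.115 in MSC, 0.0955 and 0.0925 in MSC+RAW-TW, and 0.00447 and 0.00680 in MSC+RAW-LPS-TW. The last 2 libraries were far below the other 4. In BMMs the ratio was 0.0510, 0.0892 and 0.0867 in sham and 0.112, 0.102 and 0.125 in OVX, so all OVX libraries were above all sham libraries, on levels without the GC and length step that turned the sign of Igf1. It is a ratio of mRNA levels and says nothing on protein.

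**Figure D4:**
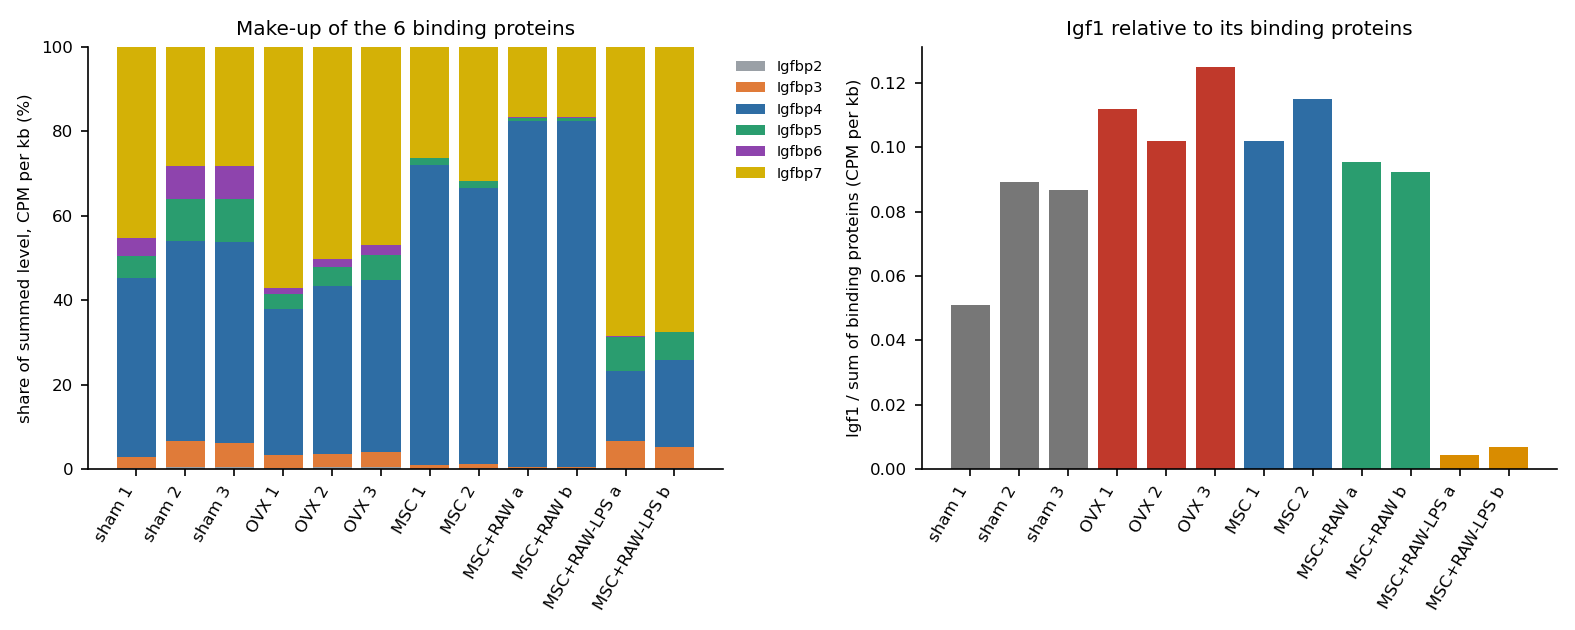
Left, share of each of the 6 binding proteins in their summed level (CPM per kb, stacked to 100%) in the 12 libraries; right, Igf1 over the summed binding-protein level in the same libraries, bars from 0. Igfbp4 fills most of the MSC and MSC+RAW-TW bars and Igfbp7 most of the MSC+RAW-LPS-TW bars, and the MSC+RAW-LPS-TW ratios of 0.00447 and 0.00680 are the lowest.

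Among the other IGF pathway genes, 57 of 62 were tested in the MSC experiment, and between MSC+RAW-LPS-TW and MSC 5 rose and 3 fell, a share of 14.0% beside 11.0% of all genes tested, with a median log2 fold change of -0.16 beside -0.01 for all genes tested. Of the 9 IGFBP proteases and inhibitors, 2 rose and 2 fell. Adam12, a metalloprotease that cuts Igfbp3 and Igfbp5, was at 16.9 and 16.2 CPM in MSC and 70.1 and 65.7 CPM in MSC+RAW-LPS-TW (log2 fold change 2.03, SE 0.16, edgeR adjusted p = 1.56e-07). Stc1, a secreted inhibitor of Pappa, was at 47.9 and 52.5 CPM in MSC and 134 CPM in each co-culture library (1.41, SE 0.15, edgeR adjusted p = 4.10e-06). Pappa2 fell from 6.67 to 1.35 CPM (-2.31, SE 0.32, edgeR adjusted p = 6.88e-05), and the lysosomal protease Ctsd fell from 2278 to 819 CPM (-1.48, SE 0.16, edgeR adjusted p = 5.11e-06). Pappa was at 61.3 CPM in MSC and 39.9 CPM in MSC+RAW-LPS-TW, under 2-fold lower (-0.62, edgeR adjusted p = 0.00844).

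Jak2, the kinase that carries the signal of the growth hormone receptor and of many cytokine receptors, was at 47.9 and 43.1 CPM in MSC and 418 and 387 CPM in MSC+RAW-LPS-TW. It rose by 3.14 on the log2 scale (SE 0.16, edgeR adjusted p = 1.14e-09), the largest change in the list. Its receptor partner Ghr was at 24.0 CPM in MSC and 18.1 CPM in MSC+RAW-LPS-TW (-0.40, edgeR adjusted p = 0.170), and the other 3 genes of that arm were not called. Downstream, Grb14, an adaptor that dampens insulin and IGF-1 receptors, rose from 18.0 to 39.6 CPM (1.13, SE 0.17, edgeR adjusted p = 0.000126). Sesn1, a FOXO target that restrains mTOR, fell from 64.8 to 11.0 CPM (-2.56, SE 0.20, edgeR adjusted p = 1.30e-07). Rheb, the GTPase that activates mTOR, rose from 38.2 to 78.8 CPM (1.04, SE 0.22, edgeR adjusted p = 0.00225), with a log2 fold change of 0.65 without library b of MSC+RAW-LPS-TW and 0.83 without MSC replicate 1, both under 2-fold. Igf2 was at 0.621 CPM in MSC and 0.217 CPM in MSC+RAW-LPS-TW (-1.53, SE 0.83, edgeR adjusted p = 0.232), so Igf1 stayed the ligand with the higher level after its fall. Insr, Igf2r, Irs1, Irs2, Grb10 and Htra1 had log2 fold changes between -0.83 and -0.15 and were not called. Of these, Irs2 (-0.83, edgeR adjusted p = 0.0245) missed the fold limit only.

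**Figure D5:**
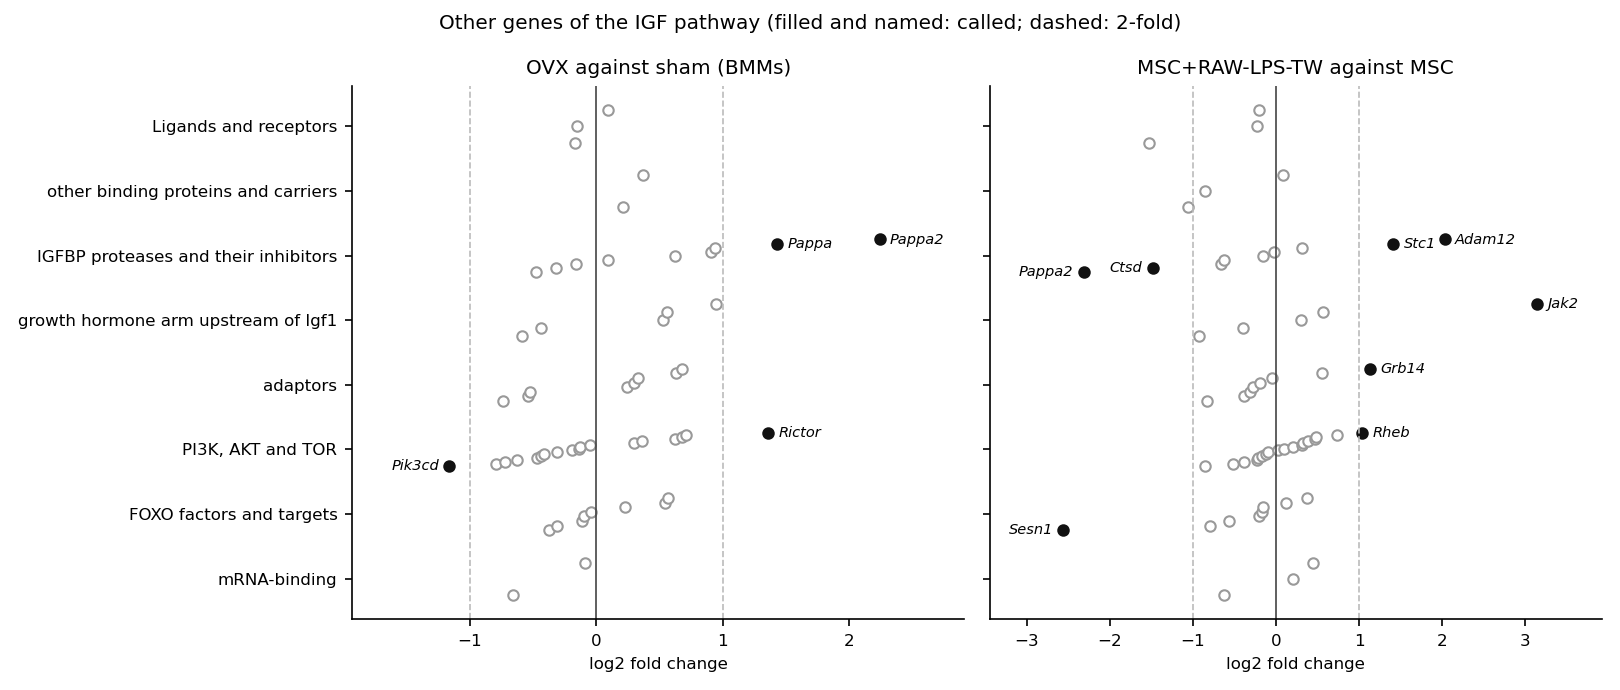
Log2 fold change (x axis) of the tested IGF pathway genes other than the 8 genes described, by role (y axis), in OVX against sham BMMs (left) and MSC+RAW-LPS-TW against MSC (right), with filled, named points for genes that passed the test and dashed lines at 2-fold. Pappa and Pappa2 are the largest rises on the left, and Jak2 (3.14) lies farthest from 0 on the right.

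Genes most like each member were found by the correlation of log2(CPM + 1) over the 6 libraries of an experiment, among 10316 genes in BMMs and 10434 in MSCs with a mean of 5 CPM or more. These libraries share groups and include near-identical pairs, so high values are common and are given as a description. In the MSC experiment, Igf1 was most like Trem2, Stx3 and Cd68 (r of 0.999 or more), of which Trem2 and Cd68 are macrophage genes, and Igfbp4 was most like Crip1, Neat1 and Blvra (0.999 or more). Igfbp7 was most like Nfkb1, Vegfa and Slamf6, each at 0.999 or more. In BMMs, Igfbp6 was most like Znfx1, Pirb and Ndrg1 (0.999), and Igf1 most like Adamts12, Golim4 and Iws1 (0.999).

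The 8 genes lie on 6 chromosomes. Igfbp2 (chromosome 1, 72824503 to 72852474, plus strand) and Igfbp5 (chromosome 1, 72857932 to 72874884, minus strand) are neighbours with 5457 bases between their ends. Igfbp3 (chromosome 11, 7206086 to 7213923, minus strand) lies 3539 bases from Igfbp1, and Igfbp4 is on the same chromosome at 99041244 to 99054392. The neighbours did not have the same levels: Igfbp5 was called higher in MSC+RAW-LPS-TW at 126 CPM, whereas Igfbp2 was not called, at 0.922 CPM.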

How the data were processed

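Poly(A) RNA was sequenced in 12 libraries as 150-bp read pairs. The authors trimmed reads, aligned them to GRCm38 and deposited raw gene counts for each experiment; the submitters' processing notes name Trim Galore 0.6.7, HISAT2 2.1.0 and featureCounts 2.0.1. Of genes with 1 to 20 counts, 60.0% to 71.4% of counts were even in a library, and the pair and strand settings of the counting are not given in the sources used here. Counts were scaled by TMM, filtered with filterByExpr and tested in edgeR 4.0.16 (R 4.3.3, limma 3.58.1) by the quasi-likelihood F-test with Benjamini-Hochberg adjustment over all genes tested; near-identical libraries were summed before the fit. A call needed a 2-fold change and an adjusted p of at most 0.05. Comparisons with MSC+RAW-TW have 1 sample on that side and were not tested. DESeq2 1.42.0, other scalings and filters, replicate blocks, left-out libraries and removal of GC and length trends (lowess, span 0.3) were alternatives. The method was tested on simulated data. Named beside the 8 genes were called IGF pathway genes averaging 1 CPM or more in the experiment, up to 8 a direction, the genes Igf2, Igf2r, Insr, Irs1, Irs2, Ghr, Pappa, Htra1 and Grb10, and the 3 most correlated genes of a member, of which some are not reported here. The members and lists were chosen with earlier results of these data known. Figures were drawn with matplotlib 3.10.9.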

Additional observations from a re-analysis of the deposited data

How the results depend on the processing

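In OVX against sham, the number of the 8 genes called was 1 with the design as reported, 1 to 2 with single libraries left out (2 without sham replicate 1, where Igfbp7 joined at a log2 fold change of 1.25) and 2 with no fold limit. The number of IGF pathway genes called there was 4, with 2 to 7 over the left-out libraries (7 without sham replicate 1 and 2 without OVX replicate 2), 2 with GC and length trends removed and 7 with no fold limit. Directions turned for Igf1 (-0.23) and Igfbp4 (0.05) with those trends removed, and for Igfbp4 (0.06) and Igfbp2 (-0.05) without sham replicate 1, with ranges over left-out libraries of -0.34 to 0.06 and -0.05 to 0.39; the cause was not tested. Over all genes, 1420 were called, 903 higher and 517 lower, against 590, 220 higher and 370 lower, with the trends removed, 313 without OVX replicate 2, 679 without OVX replicate 1 and 2391 without sham replicate 1.

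In MSC+RAW-LPS-TW against MSC, 5 of the 8 genes were called under all 17 alternatives. The IGF pathway count was 8, 7 to 9 over left-out libraries and 18 with no fold limit. Low genes turned, Igfbp2 (-0.24 without MSC replicate 1 and -0.02 without library a of MSC+RAW-LPS-TW) and Igfbp6 (-0.07 without that library), with ranges over left-out libraries of -0.24 to 1.17 and -0.07 to 1.94. Against MSC, the number of the 8 genes past 2-fold in MSC+RAW-TW was 4, and 2 with a mean of at least 1 CPM required, since Igfbp2 and Igfbp6 are low. The median of all genes in this comparison was -0.13 on the log2 scale, and 0.14 between the co-cultures.

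With the replicate number as a replicate block, 1 of the 8 genes was called in OVX against sham, Igfbp6 at -1.63, as without it; correlations of deviations between same-numbered libraries were 0.40, -0.03 and 0.35, so the numbers were not shown to pair the libraries. No block on replicate numbers was possible in the MSC experiment because the columns of the co-cultures could be tied to their group only. A block on the number series of the columns, chosen after seeing the data, also gave 1. Both block fits counted each library as a sample, near-identical ones included, unlike the design as reported.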
